A study of Mus musculus with 7 samples.

Results

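The genes described here encode the nuclear subunits of the mitochondrial respiratory chain and of ATP synthase. They were chosen by symbol, as the rows of the count table named Nduf followed by a, b, c, s or v and a number, Sdha to Sdhd, Uqcr, Cox4 to Cox8 or Atp5, with at least 10 counts in at least 2 of the 7 libraries. The pattern matched 85 of the 23337 symbols, and 83 met the minimum. They fell into complex I with 35 genes, complex II with 4, complex III with 8, complex IV with 16 and complex V with 15, and 5 matched the pattern without being subunits of a single complex. Of the pair below the minimum, Cox8c had 0 counts in every library, and Cox7b2 had at most 12 counts in any library. The lowest count of a kept gene in any library was 42, for Cox4i2, and all 83 genes passed the low-count filter of the test.

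Libraries were made from left ventricles of mouse embryos dissected at E12.5 (embryonic day), whose mothers had been injected with tamoxifen at E11.5. All embryos carried Gt(ROSA)26Sor tm1(cre/ERT2)Tyj, an allele that expresses tamoxifen-activated Cre recombinase from the broadly active Rosa26 locus. The 5 controls had Tbx5+/+ and the 2 libraries labelled mutant Tbx5flox/flox, in which Cre can remove part of Tbx5, the gene of a heart T-box transcription factor. The design asks which left ventricular transcripts depend on Tbx5, and Cre was not limited to a cell type. The labels name no litter, so the p-values cover only the spread among these 7 samples.

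The respiratory chain passes electrons from NADH (complex I) and succinate (complex II) through ubiquinone, complex III and cytochrome c to oxygen at complex IV, and the proton gradient this builds drives ATP synthase, complex V. All of complex II and most subunits of the other complexes are encoded in the nucleus, and the electron-transferring core is surrounded by many small accessory subunits. Several subunits of complex IV exist as isoforms from separate genes, and in the heart the muscle forms take over from the widely expressed forms during development.

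Library totals ran from 20268208 to 24440806 counts. Counts of Tbx5 were 1297 to 2165 in the controls, and mutant replicates 1 and 2 had 1894 and 2602. Its log2 fold change was positive, at 0.43 (SE 0.15), with an adjusted p of 0.181 by the edgeR quasi-likelihood test. Since exons that Cre leaves in place also add counts, this neither checks nor contradicts the deletion, and the genotypes are those of the labels. All 10 cardiomyocyte markers were detected, with a summed level of 37896 to 43319 CPM (counts scaled to a common library total) in the controls and 42508 and 45716 in mutant replicates 1 and 2. Summed levels of the 10 fibroblast and cushion mesenchyme markers were 2712 to 4664 CPM in the controls and 1677 and 1661 CPM in the libraries labelled mutant. For the 10 macrophage and leukocyte markers they were 187 to 251 against 166 and 115 CPM, and for the 8 epicardial markers 421 to 573 against 417 and 326 CPM. No listed marker present in the table was at 0 in all libraries. In bulk tissue, fewer cells of a type and less RNA per cell cannot be told apart. Xist, taken here as a sign of embryo sex, which the labels do not give, was near 0 in control replicates 1 and 3. It was above 300 CPM elsewhere, also in both libraries labelled mutant, so it was not balanced between the groups.

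A single respiratory chain gene passed the test. Cox4i2, an alternative isoform of a complex IV subunit, fell in the libraries labelled mutant, and no gene of the 83 rose. Of all genes tested, 1.36% passed at an adjusted p of 0.05 by edgeR's quasi-likelihood test after Benjamini-Hochberg adjustment, 0.463% as higher and 0.899% as lower. For the 83 genes the counts were 0 higher and 1 lower, near the share of all genes. At an unadjusted p under 0.05, 4 were higher, where 8.09% of all genes were, and 2 were lower, where 9.52% were. DESeq2 called 1 gene higher, Sdha, with an adjusted p of 0.0168, and limma-voom called 0.

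Median fold changes were small in every complex. The median log2 fold change was -0.02 over the 83 genes, against -0.01 over all 14691 genes tested. It was -0.04 for complex I, 0.16 for complex II, 0.01 for complex III, -0.03 for complex IV and -0.06 for complex V, and 36 of the 83 fold changes were positive and 47 negative. Both libraries labelled mutant lay above all 5 controls for 6 of the 83 genes (7.23%), compared with 9.73% of all genes, and below them for 2 (2.41%), compared with 10.4%. Among the 6 were Sdha, Uqcrc1, Uqcrfs1, Atp5a1 and Atp5b, and the 2 were Cox4i2 and Cox7a2l.

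**Figure D1:**
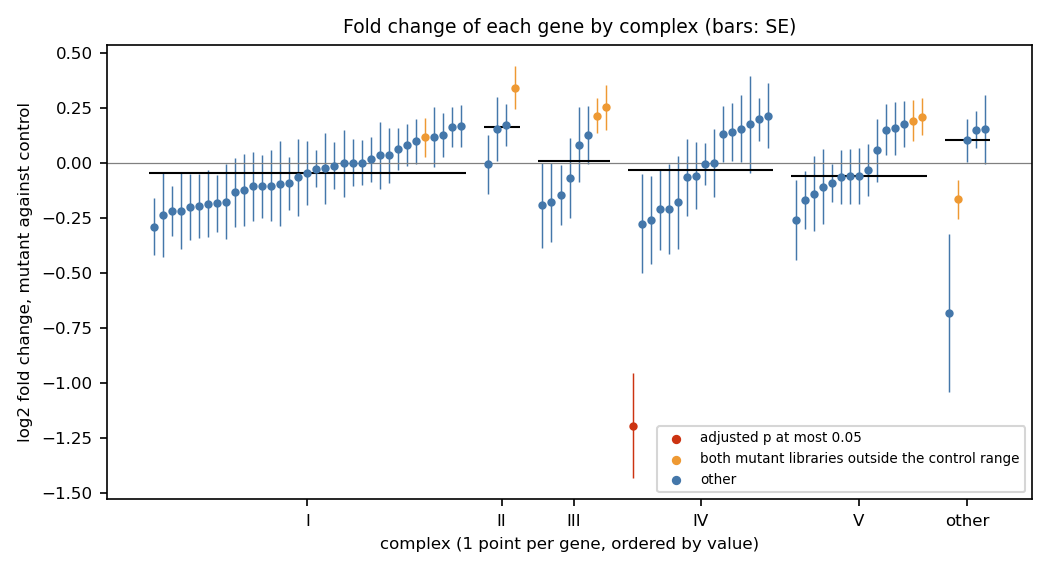
Log2 fold change of each of the 83 genes with its SE, grouped by complex on the horizontal axis, with a black line at each group's median. Apart from Cox4i2 at -1.19 and Ndufa4l2 at -0.68, all genes lie between -0.29 and 0.34.

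The median level of the genes differed from library to library, and the libraries labelled mutant stood on either side of the middle. The median over the 83 genes of the difference in log2 CPM from the gene's own mean was 0.06, -0.06, 0.19, 0.08 and -0.20 in control replicates 1 to 5, while mutant replicates 1 and 2 had 0.13 and -0.18. Both values for the libraries labelled mutant fell inside the control range. Summed levels were 31129, 29479, 34304, 32322 and 27945 CPM in the controls and 34853 and 29108 CPM in the libraries labelled mutant, that is 31036 ± 2466 (SD, n = 5) and 31981 ± 4062 CPM (SD, n = 2), or 3.10% and 3.20% of the library. Mutant replicate 1 was thus the highest library in the sum, and mutant replicate 2 the second lowest.

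Control replicate 5 and mutant replicate 2 had the 2 lowest medians of these genes, -0.20 and -0.18. The counts for this pair come from the same values, so they describe the low medians and are no separate support. These libraries were the 2 lowest for 46 of the 83 genes (55.4%), compared with 13.3% of all genes tested. They were the 2 highest for 0 of the 83, compared with 11.7%. The 46 included 23 of 35 genes of complex I, 6 of 8 of complex III, 8 of 16 of complex IV, 9 of 15 of complex V and 0 of 4 of complex II. Without mutant replicate 1 the median log2 fold change of the 83 genes was -0.19, and without mutant replicate 2 it was 0.12. The number of genes above the control range was 31 without mutant replicate 2 and 32 with control replicate 5 also left out, where the shares of all genes were 20% and 25.3%. The number below it was 25 without mutant replicate 1, where the share of all genes was 26.7%, and 6 without control replicate 5, where it was 15.9%.

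**Figure D2:**
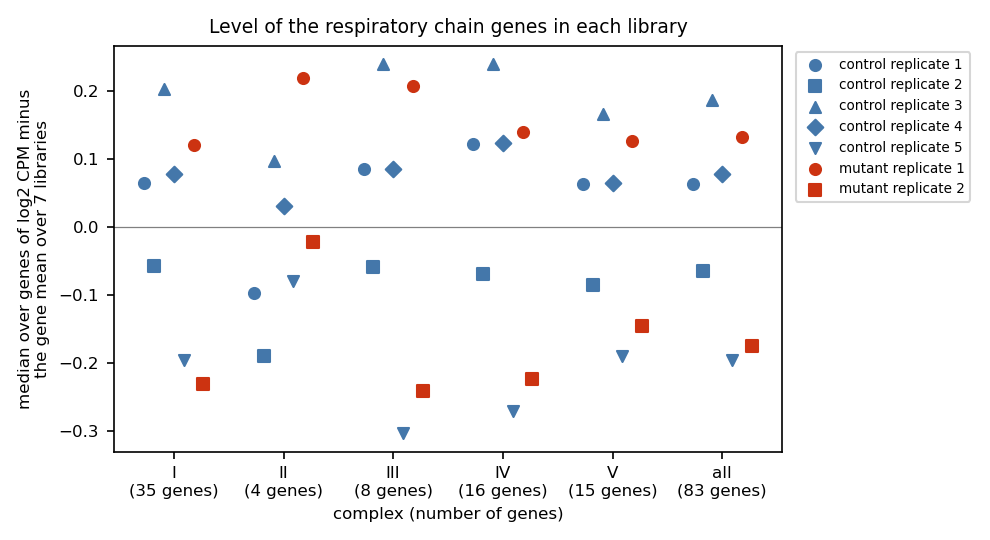
Median over the genes of each complex of the log2 CPM minus the gene's mean over 7 libraries, with 1 point per library, controls in blue and libraries labelled mutant in red. Mutant replicate 1 lies above 0 and mutant replicate 2 below 0 in every complex, where control replicate 5 also lies in each.

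Complex I, which oxidises NADH, was measured through 35 of its genes, from 54.5 to 427 CPM per kilobase of transcript in the controls. The gene of highest level, Ndufb8, an accessory subunit of the membrane arm, had 426.6 CPM per kilobase in the controls and a log2 fold change of 0.08 (SE 0.09). Of the 35 fold changes 13 were positive and 22 negative, and none passed the test. The largest positive values were those of Ndufv1 at 0.17 (SE 0.10), which carries the flavin that accepts electrons from NADH, and Ndufs3 at 0.17 (SE 0.09), a core subunit.

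The most negative values in complex I belonged to small accessory subunits, which do not carry electrons. Ndufa1 had 112, 95.5, 105, 93.1 and 80.4 CPM in the controls and 86.7 and 72.6 CPM in the libraries labelled mutant, a log2 fold change of -0.29 (SE 0.13) with an adjusted p of 0.278 by the edgeR quasi-likelihood test. Control replicate 5 lay between the libraries labelled mutant. Ndufa2, with 116 to 195 CPM in the controls and 165 and 113 CPM in the libraries labelled mutant, had a log2 fold change of -0.24 (SE 0.19). Ndufa7 at -0.22 (SE 0.11) and Ndufa13 at -0.18 (SE 0.13) did not pass the test either.

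Complex II, which oxidises succinate and so belongs to the citric acid cycle as well, had the highest median of the complexes, with 3 of 4 fold changes positive. Sdha, its flavin-carrying catalytic subunit, on chromosome 13 at 74322255 to 74350240 of GRCm38 (mm10), had 502, 508, 568, 581 and 605 CPM in control replicates 1 to 5, against 689 and 714 CPM in mutant replicates 1 and 2. All controls lay below both libraries labelled mutant, at 553 ± 45.8 (SD, n = 5) against 702 ± 18.3 CPM (SD, n = 2). The log2 fold change was 0.34 (SE 0.10), the largest positive value of the 83 genes, with an adjusted p of 0.109 by the edgeR quasi-likelihood test. It passed in 2 alternatives, with DESeq2 as given above and with the replicate number as a block, where the adjusted p was 0.0312.

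Sdhc, a membrane anchor of complex II, had a log2 fold change of 0.17 (SE 0.10), with 252 to 302 CPM in the controls and 338 and 296 CPM in the libraries labelled mutant. Sdhd, the other anchor and the gene of highest level per length at 363 CPM per kilobase, stood at 0.00 (SE 0.13). The summed level of the 4 genes was 1690 ± 127 CPM in the controls (SD, n = 5) and 1920 ± 147 CPM in those labelled mutant (SD, n = 2). The groups overlapped, since mutant replicate 2 at 1816 CPM lay below control replicate 3 at 1865 CPM.

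Complex III, which passes electrons from ubiquinol to cytochrome c, had 4 positive and 4 negative fold changes, none of which passed the test. Uqcrc1, on chromosome 9 at 108936648 to 108949641, had 447, 464, 504, 501 and 558 CPM in the controls and 620 and 561 CPM in the libraries labelled mutant. Uqcrfs1, the Rieske iron-sulfur subunit that hands electrons on, on chromosome 13 at 30540312 to 30545316, had 295, 289, 318, 311 and 297 CPM against 362 and 340 CPM. Neither gene overlapped between the groups, although the margin for Uqcrc1 was under 4 CPM. Their log2 fold changes were 0.26 (SE 0.10) and 0.22 (SE 0.08), with adjusted p of 0.229 and 0.206 by the edgeR quasi-likelihood test.

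The most negative values of complex III were those of Uqcr10 and Uqcrh, both small subunits. Uqcr10 had a log2 fold change of -0.19 (SE 0.19), with 233 to 402 CPM in the controls and 341 and 244 CPM in the libraries labelled mutant. Uqcrh, the hinge subunit that helps dock cytochrome c and the gene of highest level per length at 1069 CPM per kilobase, had -0.18 (SE 0.18). For both genes control replicate 5 was the lowest library and mutant replicate 2 the next.

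Complex IV, the cytochrome c oxidase, held the gene that passed. Cox4i2 lies on chromosome 2 at 152753916 to 152765039, and encodes an oxygen-responsive isoform of subunit 4, known mainly from lung and from cells around small vessels. Control replicates 1 to 5 held 131, 76, 108, 84 and 143 counts of it and mutant replicates 1 and 2 held 42 and 49, or 5.64, 3.61, 4.90, 4.16 and 5.82 CPM against 2.08 and 2.14 CPM. Every control lay above both libraries labelled mutant, and the means were 4.83 ± 0.947 (SD, n = 5) and 2.11 ± 0.0443 CPM (SD, n = 2).

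The log2 fold change of Cox4i2 was -1.19 (SE 0.24) with an adjusted p of 0.0439 by the edgeR quasi-likelihood test. It ran from -1.27 to -1.10 over 19 alternative analyses and passed in 10 of them, with adjusted p from 0.000966 to 0.272. The call was lost without control replicate 1, 2 or 3 (adjusted p of 0.0995, 0.0544 and 0.0721), without mutant replicate 1 or 2 (0.0914 and 0.272), with control replicate 5 and mutant replicate 2 both left out (0.208), with limma-voom (0.0793), with Xist as a covariate (0.140) and in the libraries with Xist alone (0.192). In the authors' deposited table Cox4i2 had a log fold change of -1.20 and a false discovery rate of 0.00194. It was the single gene of the 83 among the 668 listed there.

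Marker sums of other cell types differed in part and overlapped in part between the groups. Of 10 fibroblast and cushion mesenchyme markers 6 were lower by the same test, where 0.899% of all genes were. So were 3 of the 10 macrophage and leukocyte markers and 1 of the 8 epicardial markers. The sums of each of these lists did not overlap between the groups. Sums of the 10 endocardial and endothelial markers, 860 to 1263 against 804 and 1198 CPM, overlapped. Those of the 8 erythroid markers, 4562 to 10029 against 5910 and 6271 CPM, overlapped as well. A list of 7 genes of mural cells, which surround small vessels, was made after the values were seen. Its sum was 139 to 206 CPM in the controls and 150 and 227 CPM in the libraries labelled mutant, and the 4 smooth muscle markers summed to 1193 to 2281 against 2632 and 2049 CPM. The mural and the smooth muscle sums thus overlapped between the groups. The part of these cell types in the level of Cox4i2 was not tested.

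Cox4i1, the widely expressed isoform of the same subunit, on chromosome 8 at 120668225 to 120674209, had 668, 651, 731, 721 and 777 CPM in the controls and 726 and 689 CPM in the libraries labelled mutant. Both of the latter lay within the control range, with a log2 fold change of 0.00 (SE 0.09). Its neighbour Cox4nb, whose symbol matches the pattern but whose product is a subunit of a membrane complex of the endoplasmic reticulum, ends at 120668087, and had a log2 fold change of 0.10 (SE 0.10).

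Among the remaining genes of complex IV, Cox6c, an accessory subunit and the highest per length at 1051 CPM per kilobase, had 613, 542, 608, 549 and 331 CPM in the controls and 514 and 360 CPM in the libraries labelled mutant. Control replicate 5 was below both, and the log2 fold change was -0.27 (SE 0.23). The largest positive values were those of Cox6a2 at 0.22 (SE 0.15) and of Cox5a, an accessory subunit, at 0.20 (SE 0.10). Cox5a had 249 to 293 CPM in the controls and 341 and 287 CPM in the libraries labelled mutant, so its groups overlapped.

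**Figure D3:**
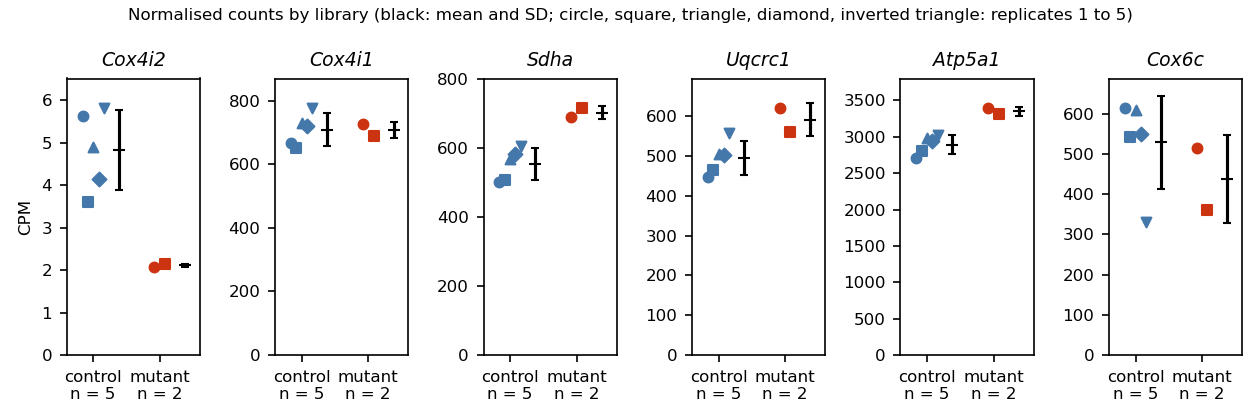
CPM of 6 genes in each library, with controls in blue, libraries labelled mutant in red and group means with SD in black; all vertical axes start at 0. The groups do not overlap for Cox4i2, Sdha, Uqcrc1 and Atp5a1, and overlap for Cox4i1 and Cox6c.

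Complex V, the ATP synthase, held the gene of highest level of all 83 per length. Atp5b, the catalytic beta subunit, on chromosome 10 at 128083307 to 128090388, had 2048 CPM per kilobase in the controls, and 3594, 3820, 4250, 3972 and 3980 CPM in the controls against 4718 and 4262 CPM in the libraries labelled mutant. Atp5a1, the alpha subunit of the same catalytic head, on chromosome 18 at 77773768 to 77782869, had 2707, 2803, 2982, 2947 and 3027 CPM against 3394 and 3308 CPM. For both genes the libraries labelled mutant lay above all controls, by a margin of about 11 CPM in the case of Atp5b. The log2 fold changes were 0.21 (SE 0.08) for Atp5a1 and 0.19 (SE 0.09) for Atp5b, with adjusted p of 0.229 and 0.315 by the edgeR quasi-likelihood test.

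The most negative values of complex V belonged to Atp5j2, a small subunit of the membrane part, at -0.26 (SE 0.18), and Atp5g2 at -0.17 (SE 0.13). Atp5j2 had 362 to 575 CPM in the controls and 482 and 338 CPM in the libraries labelled mutant. The sum over the 15 genes was 13608 ± 795 CPM (SD, n = 5) against 14553 ± 1410 CPM (SD, n = 2), and mutant replicate 2 at 13556 CPM lay within the control range of 12933 to 14753 CPM.

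Of the 5 genes kept apart, Cox7a2l, which joins complexes III and IV into supercomplexes, had 330, 313, 338, 343 and 320 CPM in the controls and 311 and 276 CPM in the libraries labelled mutant. Both of the latter lay below the controls, the first by under 2 CPM, and the log2 fold change was -0.16 (SE 0.09) with an adjusted p of 0.357 by the edgeR quasi-likelihood test. Ndufa4l2, a hypoxia-induced relative of the complex IV subunit Ndufa4, had 9.82, 6.12, 3.13, 6.68 and 8.79 CPM against 4.21 and 4.42 CPM. Control replicate 3 was lower than both libraries labelled mutant, and the log2 fold change of -0.68 (SE 0.36) had an adjusted p of 0.357 in that test. Atp5s and Atp5sl, mitochondrial proteins named for ATP synthase, each had 0.15.

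Isoforms were compared by the log2 ratio of their counts within a library, which does not depend on scaling. For Cox4i2 against Cox4i1 the ratio was -6.88, -7.49, -7.21, -7.43 and -7.06 in control replicates 1 to 5, against -8.43 and -8.31 in mutant replicates 1 and 2. The groups did not overlap, and the means differed by -1.16. A two-sided exact permutation test gave p = 0.0476, the smallest value that 21 arrangements of 7 libraries allow, and an adjusted p of 0.190 over 8 pairs, so no pair could readily pass. Per transcript length, Cox4i2 made up 0.691% ± 0.122 of the pair in the controls (SD, n = 5) and 0.305% ± 0.0175 in those labelled mutant (SD, n = 2).

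The shares of the muscle isoforms of complex IV overlapped between the groups. Cox6a2, the heart and skeletal muscle form of subunit 6a, made up 28.8% ± 3.49 of the pair with Cox6a1 per length in the controls (SD, n = 5) and 30.2% ± 2.20 in those labelled mutant (SD, n = 2). For Cox7a1 against Cox7a2 the shares were 13.9% ± 1.71 and 15.9% ± 2.26, and for Cox8b against Cox8a 8.72% ± 2.01 and 9.03% ± 0.741, with the same numbers of libraries. The log2 ratios differed between the groups by 0.11, 0.23 and 0.08, with exact permutation p of 0.667, 0.333 and 0.762, and overlapped in every pair. In these E12.5 ventricles the widely expressed form was thus the more abundant of each pair, in every library.

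Cox6b2, the testis form of subunit 6b, stayed near 1.47% of its pair with Cox6b1 in the controls and 1.46% in the libraries labelled mutant, a difference in log2 ratio of -0.01 (exact permutation p = 0.905). Ndufa4l2 against Ndufa4 differed by -0.40 (exact permutation p = 0.619), with control ratios from -7.53 to -5.18, the widest range of the 8 pairs. The fold changes of single genes were 0.13 (SE 0.13) for Cox6a1, -0.06 (SE 0.15) for Cox6b1, -0.21 (SE 0.18) for Cox7a2, 0.14 (SE 0.13) for Cox8a and -0.18 (SE 0.21) for Ndufa4, on the log2 scale. The muscle and testis forms Cox7a1, Cox8b and Cox6b2 had 0.00 (SE 0.15), 0.18 (SE 0.22) and -0.06 (SE 0.17). None of these passed the test.

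**Figure D4:**
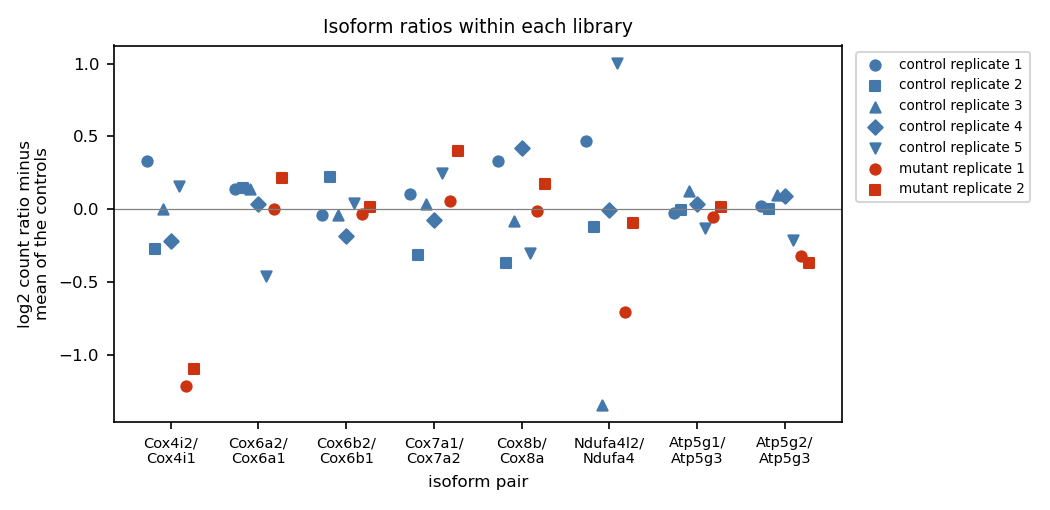
Log2 count ratio of 8 isoform pairs in each library, after subtraction of the mean of the controls, with controls in blue and libraries labelled mutant in red. The libraries labelled mutant lie below all controls for Cox4i2/Cox4i1 and Atp5g2/Atp5g3 and overlap the controls in the other 6 pairs.

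The c ring of ATP synthase, the rotor through which protons pass, is built from a subunit encoded by Atp5g1, Atp5g2 and Atp5g3, whose products differ in their import sequences and yield the same mature protein. Atp5g2 had 408, 392, 477, 466 and 368 CPM in the controls and 423 and 329 CPM in the libraries labelled mutant. Atp5g3 had 787, 766, 873, 855 and 835 CPM against 1034 and 830 CPM, a log2 fold change of 0.18 (SE 0.10), and Atp5g1 had a value of 0.15 (SE 0.12). Each gene alone overlapped between the groups.

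The ratio of Atp5g2 to Atp5g3 did not overlap. Its log2 value was -0.95, -0.97, -0.87, -0.87 and -1.18 in the controls, against -1.29 and -1.33 in the libraries labelled mutant, a difference of -0.34 with an exact permutation p of 0.0476 and an adjusted p of 0.190 over the 8 pairs. Atp5g1 against Atp5g3 differed by -0.02 (exact permutation p = 0.714). Per length, Atp5g2 supplied 34.1% ± 1.49 of the transcripts of the 3 genes in the controls (SD, n = 5). In the libraries labelled mutant it supplied 29.0% ± 0.707 (SD, n = 2). Shares of Atp5g3 were 41.2% ± 1.85 and 44.5% ± 0.0933, and those of Atp5g1 24.8% ± 0.604 and 26.5% ± 0.8002. These shares depend on the transcript used, which for Atp5g2 had 441 nucleotides, 438 of them coding. For Atp5g1 it had 596, with 408 coding, and for Atp5g3 714, with 423 coding. Without division by length, the control means were 422 CPM for Atp5g2, 415 for Atp5g1 and 823 for Atp5g3.

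Transcript and coding length went with the fold changes, both in the respiratory chain and outside it. Across the 83 genes the Spearman correlation of the log2 fold change with coding length was 0.51, and across 4193 other genes above 50 CPM it was 0.48; genes share these libraries and are not independent replicates. With transcript length it was 0.39 and 0.55, and with GC content 0.07 and -0.03. Sdha, Uqcrc1, Uqcrfs1, Atp5a1 and Atp5b had coding lengths of 822 to 1992 nucleotides, and the small subunits Ndufa1, Cox6c and Atp5j2 at most 264. Other genes went against this order. Ndufv3, with 1404 coding nucleotides, had a log2 fold change of -0.10, and Cox8a, with 207, had 0.14.

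The coefficient with coding length was furthest from 0 in mutant replicate 2. The deviation of this library from the mean of all libraries correlated with coding length at 0.59 across the 83 genes and 0.52 across the other genes. In mutant replicate 1 these values were 0.26 and 0.08, and in control replicate 5 they were 0.32 and 0.01. In the 4 other controls the coefficients across the 83 genes ran from -0.51 to -0.26. Without mutant replicate 2 the correlation of the fold change with coding length was 0.37 across the 83 genes and 0.22 across the others. Split at a transcript length of 758 nucleotides, the median of the 83 genes, the shorter 41 had a median log2 fold change of -0.06 and the longer 42 of 0.02. Among the other genes the 130 shorter had -0.26 and the 4063 longer 0.03. By complex, the median transcript length was 2065.5 nucleotides in complex II, which had the highest median fold change, and 541 to 861 in the others. The part of length in the differences between subunits and between complexes was not tested.

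**Figure D5:**
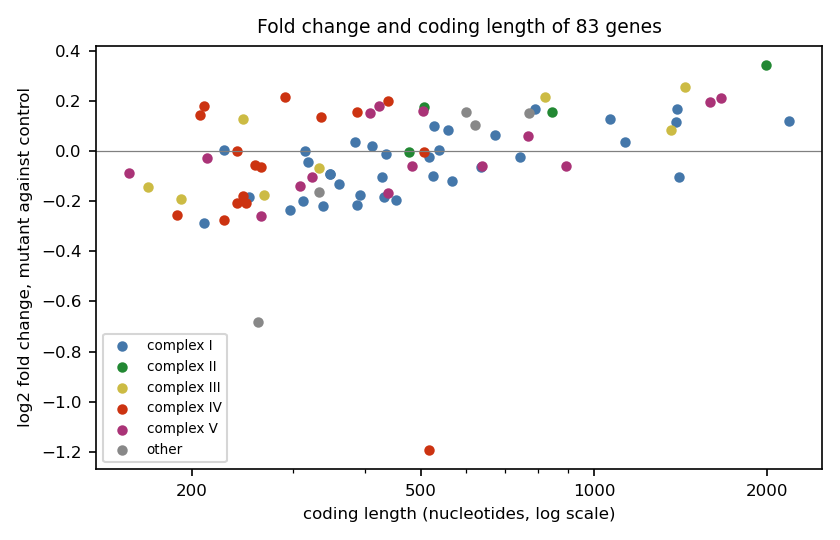
Log2 fold change of the 83 genes against coding length in nucleotides on a log scale, coloured by complex. Most negative values lie in the left part, and Sdha, Uqcrc1 and Atp5a1 stand at the upper right.

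Promoters were searched for motifs of factors known to act on respiratory chain genes and for a T-box motif. The RefSeq table for GRCm38.p6 held 74 promoters of 68 of the 83 genes, each from 250 bases before to 50 after the start, and 32851 promoters in all. On either strand, GCANGCGC, the motif of nuclear respiratory factor 1 (NRF1), was found in 29 of the 74 (39.2%) and in 9.61% of all promoters. AAGATGGC, a motif of YY1, was in 12 (16.2%) and in 2.75%, CCGGAAGT, a motif of ETS factors, in 5 (6.76%) and in 3.89%, and CAAGGTCA, a motif of estrogen-related receptors, in 4 (5.41%) and in 1.56%. AGGTGTGA, a T-box motif, was in 0 of the 74 and in 1.28% of all, which says only that these letters are not in these windows. A match is a description, not a site of binding.

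The promoters of Sdha and Uqcrc1, the genes of largest positive fold change in complexes II and III, each held 3 matches of the NRF1 motif, and those of the c subunit genes Atp5g2 and Atp5g3, whose ratio differed without overlap, are shown for comparison. All are RefSeq sequences of GRCm38.p6, written 5′ to 3′ on the strand of the gene. Capitals mark NRF1 motif matches, which overlap in part, and in Atp5g3 also the estrogen-related receptor motif on the opposite strand. The windows are chr13:74350191-74350490 on the minus strand for Sdha, chr9:108936398-108936697 on the plus strand for Uqcrc1, chr15:102670998-102671297 on the minus strand for Atp5g2 and chr2:73911277-73911576 on the minus strand for Atp5g3. Atp5g3 spans 73908447 to 73912464, so its window belongs to a start inside the gene. The windows of Sdha, Uqcrc1 and Atp5g2 lie at the outer start of the gene.
Sdha: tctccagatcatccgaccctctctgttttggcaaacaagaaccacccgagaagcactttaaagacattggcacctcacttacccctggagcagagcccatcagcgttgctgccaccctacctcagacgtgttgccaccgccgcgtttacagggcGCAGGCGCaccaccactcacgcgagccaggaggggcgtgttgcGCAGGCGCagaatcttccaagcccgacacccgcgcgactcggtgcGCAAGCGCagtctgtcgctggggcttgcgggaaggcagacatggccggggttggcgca
Uqcrc1: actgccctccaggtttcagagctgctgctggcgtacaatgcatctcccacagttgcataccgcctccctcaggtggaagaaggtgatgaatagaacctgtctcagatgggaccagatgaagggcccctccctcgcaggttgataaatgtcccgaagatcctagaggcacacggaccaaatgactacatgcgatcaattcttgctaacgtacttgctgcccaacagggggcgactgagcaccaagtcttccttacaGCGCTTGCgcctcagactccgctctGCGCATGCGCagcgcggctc
Atp5g2: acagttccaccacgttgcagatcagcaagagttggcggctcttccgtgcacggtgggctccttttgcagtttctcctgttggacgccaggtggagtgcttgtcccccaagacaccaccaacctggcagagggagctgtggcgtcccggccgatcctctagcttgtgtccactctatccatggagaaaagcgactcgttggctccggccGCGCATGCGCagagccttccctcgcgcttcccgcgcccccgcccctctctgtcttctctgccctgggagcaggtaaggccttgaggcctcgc
Atp5g3: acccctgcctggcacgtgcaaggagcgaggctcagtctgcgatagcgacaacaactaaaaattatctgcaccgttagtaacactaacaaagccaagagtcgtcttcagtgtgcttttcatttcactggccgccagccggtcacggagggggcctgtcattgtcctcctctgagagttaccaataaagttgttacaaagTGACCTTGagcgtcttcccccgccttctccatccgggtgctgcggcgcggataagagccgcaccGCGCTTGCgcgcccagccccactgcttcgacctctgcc
In Sdha the 3 matches lie apart, while in Uqcrc1 and Atp5g2 a pair overlaps in a palindromic run. Atp5g2 held 2 NRF1 matches and Atp5g3 1, with 1 of the estrogen-related receptor motif. Genes with an NRF1 match were 10 of 31 with a promoter in complex I, 3 of 3 in complex II, 3 of 5 in complex III, 2 of 12 in complex IV and 8 of 14 in complex V. The promoter of Atp5b, which lay above the control range, held 0 matches of the 5 motifs, and so did that of Uqcrfs1. Cox6a1 and Ndufb4, with log2 fold changes of 0.13 and -0.22, each held 3 NRF1 matches, as Sdha and Uqcrc1 did. Whether matches go with fold changes was not tested. Motifs of Cox4i2 and Cox4i1 were not analysed here.

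The other genes of the chain were followed through a list of 66 assembly factors, remaining subunits and regulators, all of them tested. Ppargc1b, a coactivator that promotes mitochondrial gene expression, rose, and 0 genes of the list were called lower, by the edgeR quasi-likelihood test. It had 11.02, 13.8, 12.2, 15.1 and 13.2 CPM in the controls and 20.12 and 20.04 CPM in the libraries labelled mutant, without overlap, and a log2 fold change of 0.62 (SE 0.13) with an adjusted p of 0.0464. At an unadjusted p under 0.05, 10 of the 66 were higher and 2 lower, where 8.09% and 9.52% of all genes were. Both libraries labelled mutant lay above all controls for 17 of the 66 and below them for 1, where the shares of all genes were 9.73% and 10.4%. Of the 66 fold changes 42 were positive, a larger share than the 7139 of all 14691 genes tested. The median was 0.05, against -0.01 over all genes tested. By each of these counts the list had a larger share higher and a smaller share lower than all genes. The list was not tested as a set. When single libraries were left out, the call of Ppargc1b was kept without control replicate 4 and lost without each of the other 6, with adjusted p of 0.0509 to 0.269.

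Of the 14 regulators of mitochondrial biogenesis 13 had positive fold changes, with a median of 0.18, among them Ppargc1a at 0.25 (SE 0.12). Tfam, which packages mitochondrial DNA, was the exception at -0.12 (SE 0.08). The 20 assembly factors of complex IV had a median of 0.04. At an unadjusted p under 0.05, 4 of them were higher and 2 lower, where 8.09% and 9.52% of all genes were. The lowest p-values were those of Cox10 at 0.32 (SE 0.08) and Coa5 at 0.30 (SE 0.08), with adjusted p of 0.0913 and 0.0957. Cox17, a copper chaperone, was at -0.46 (SE 0.15) with an adjusted p of 0.151, all by edgeR's quasi-likelihood test. The authors' deposited table listed Ppargc1b with a log fold change of 0.615 and a false discovery rate of 0.00393, and Cox17 with -0.468 and 0.0429. The medians were 0.03 for the 14 assembly factors of complex I, -0.15 for the 4 of complex II, 0.02 for the 6 of complex III and -0.02 for the 5 genes of complex V assembly and inhibition.

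The 3 subunits whose symbols lie outside the pattern all had positive fold changes. Cyc1, cytochrome c1 of complex III, had 405, 411, 470, 445 and 417 CPM in the controls and 579 and 473 CPM in the libraries labelled mutant, a log2 fold change of 0.29 (SE 0.10) with an adjusted p of 0.181. Ndufab1, the acyl carrier protein of complex I, had 0.32 (SE 0.11) with an adjusted p of 0.169, and Cycs, cytochrome c itself, 0.06 (SE 0.15), all by the edgeR quasi-likelihood test. Many of the genes described have near-identical processed copies elsewhere in the genome, and without strand information overlapping genes cannot be told apart, so counts of single genes are uncertain to that extent.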

How the data were processed

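Poly(A) RNA of 7 microdissected left ventricles was sequenced as 50-base single-end reads, per the labels' protocols, and groups and replicate numbers came from the sample titles. The authors deposited whole-number read counts per gene symbol, not normalized. The submitters' processing notes name the build mm10 and, as tools, edgeR 3.16.5 and limma 3.30.13 in R 3.3.2, featureCounts and TopHat2 2.1.1. The sources used here give no annotation, strand setting or handling of multiply matching reads. A deposited table of the authors' own comparison gives a log fold change, read as log2, its p-value and its false discovery rate.

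Counts were fitted in R 4.3.3 with edgeR 4.0.16 (filterByExpr with a minimum count of 10, TMM, glmQLFit and glmQLFTest, robust, genotype only). Of 23337 genes, 14691 were tested, and p-values were Benjamini-Hochberg adjusted over all of them. CPM values used TMM-scaled totals. For SEs, the size of the log2 fold change was divided by the square root of F. Library totals of 20268208 to 24440806 counts set the precision, and a biological coefficient of variation of 0.128 was fitted. Libraries within a group differed by at least 10.5 times sampling noise per degree of freedom, so none was a copy of another. Isoform log2 count ratios, with 0.5 added to each count, were compared by a two-sided exact permutation test over 21 arrangements, adjusted over 8 pairs. Per-length levels divided CPM by the length of the GENCODE principal transcript, which was found for 83 of 83 genes. Positions and promoters came from RefSeq GRCm38.p6. Figures used matplotlib 3.10.9.

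The genes and lists were chosen with earlier results of these data known. Complexes followed the symbols, except that Ndufa4 was put in complex IV and 5 factors or unplaced genes were kept apart, Cox4nb after the table was seen. The rule for named genes took called genes, the gene of highest per-length level in each complex, isoform pairs, the 2 largest fold changes per complex and direction, and the 6 lowest p-values per direction, 35 genes in all. The uncalled genes named among the other chain genes were chosen after their values were seen, and the values of 1 gene are not reported here. Alternatives were other scalings and filters, DESeq2 1.42.0, limma-voom (limma 3.58.1), a replicate block, Xist as a covariate or selection, and libraries left out.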

Additional observations from a re-analysis of the deposited data

Results flagged for a closer look

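In 97 sets of 5 control values examined (83 genes, 8 isoform ratios and 6 summed levels), 5 had a library standing apart, with a gap to the nearest of the others above 0.71 of the whole range. Chance gives such a gap in about 1 in 20 sets.

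Control replicate 5 was the library that stood apart in 4 of them. It had 293.9 CPM of Atp5j, a subunit of the ATP synthase stalk, where the other controls had 421 to 462 CPM. It had 331 CPM of Cox6c, against 542 to 613 CPM, and 9.07 CPM of Atp5s, against 12.4 to 13.2 CPM. The log2 ratio of Cox6a2 to Cox6a1 was -1.52 in this library and -1.03 to -0.92 in the others. In control replicate 3, Cox8a stood at 436 CPM, above 360 to 373 CPM in the other controls.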

How the results depend on the processing

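The number of the 83 genes called lower was 0 with limma-voom, with Xist as a covariate, in the libraries with Xist over 10 CPM, with control replicate 5 and mutant replicate 2 left out and at a threshold of 0.01, 2 with the replicate block, and 0 to 1 with single libraries left out. The number called higher was 1 with DESeq2 and 1 with the replicate block, in which same-numbered libraries share only a number (correlations of their deviations 0.08 and 0.01) and the genes called overall went from 68 to 299 higher and from 132 to 512 lower. Overall calls were 351 higher and 435 lower with DESeq2, 50 and 69 with limma-voom, 19 and 41 with Xist as a covariate, 17 and 49 in the libraries with Xist, 15 and 37 with the 2 libraries out, 151 and 62 without mutant replicate 1 and 3 and 9 without mutant replicate 2. Medians ranged, with single libraries left out, from -0.26 to 0.12 (complex I), 0.018 to 0.30 (II), -0.25 to 0.22 (III), -0.22 to 0.11 (IV), -0.16 to 0.10 (V) and -0.19 to 0.12 (all 83), and complex II was 0.28 with control replicate 5 and mutant replicate 2 out. Over all alternatives the median changed sign in 5 of 20 for complex I, 0 of 20 for II, 4 of 20 for III, 5 of 20 for IV, 4 of 20 for V and 5 of 19 for the 83 genes. Genes above the control range numbered 3 with upper quartile scaling, where 7.94% of all genes were. With those 2 libraries out they numbered 32, and 6 lay below the range, where 25.3% and 26.1% of all genes did. With single libraries out 6 to 31 lay above it and 2 to 25 below, where the shares of all genes were 10.5% to 27% and 11.3% to 26.7%.

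Isoform differences changed sign with control replicate 5 and mutant replicate 2 out for Cox6a2/Cox6a1 (-0.11) and Cox8b/Cox8a (-0.085), and in the libraries with Xist for Atp5g1/Atp5g3 (0.013). With single libraries out they ran from -0.0084 to 0.21 (Cox6a2/Cox6a1), -0.055 to 0.047 (Cox6b2/Cox6b1), -0.0096 to 0.19 (Cox8b/Cox8a) and -0.053 to 0.013 (Atp5g1/Atp5g3). For the 66 other chain genes, whose alternatives were chosen after seeing the data, calls higher were 0 with upper quartile scaling, limma-voom, Xist as covariate, Xist libraries or the 2 libraries out, 3 with DESeq2 and 0 to 1 with single libraries out, and 1 was called lower with the replicate block.

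Several single genes changed sign. Cox4i1 had 0.0037 with DESeq2 size factors and DESeq2, 0.0045 with no filter, 0.10 with the block and 0.076 with the 2 libraries out. Cox6b1 had 0.033 with Xist as covariate, 0.037 in Xist libraries and 0.074 with the 2 out, Cox6b2 0.0022 and 0.056 in the latter pair of settings, and Cox7a1 -0.027 with upper quartile scaling. Sdhd had 0.0043 with DESeq2 size factors and DESeq2, 0.00056 with library totals, 0.0049 with no filter, 0.0014 with limma-voom, 0.097 with the block, 0.093 with Xist as covariate, 0.097 in Xist libraries and 0.082 with the 2 out. With single libraries out the ranges were -0.36 to 0.013 (Atp5g2), -0.041 to 0.043 (Cox4i1), -0.092 to 0.34 (Cox6a1), -0.27 to 0.15 (Cox6b1), -0.26 to 0.12 (Cox6b2), -0.084 to 0.093 (Cox7a1), -0.49 to 0.035 (Cox7a2), -0.13 to 0.38 (Cox8a), -0.38 to 0.0041 (Ndufa13), -0.54 to 0.027 (Ndufa2), -0.48 to 0.080 (Ndufa4), -0.13 to 0.12 (Sdhd), -0.45 to 0.039 (Uqcr10) and -0.41 to 0.033 (Uqcrh). The cause of these changes was not tested. For single genes 618 alternative values kept direction and side of the threshold. The 42 and 49 counts of Cox4i2 in the libraries labelled mutant limit its precision.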
